A study of Mus musculus with 30 samples.

Results

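The genes described here are spliced protein-coding genes that were counted in most wild-type and Dis3 heterozygous mouse embryos and stood at a count of 0 in most Dis3 null embryos. They were chosen on the counts themselves: a protein_coding gene of GENCODE vM21 with a transcript of 2 or more exons, at 5 or more counts in at least 12 of the 16 WT and Het embryos and at 0 in at least 4 of the 7 Null embryos, with 1 gene left out by name. Of 55487 genes counted, 20604 were spliced and protein-coding, 9307 of those met the level criterion in the WT and Het embryos, and 115 were members, or 1.24% of the 9307. Since the contrast of Null with WT and Het embryos chose them, that contrast is only described below. Calls made in it are counted beside those of all genes, are no test of the members and support nothing.

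Embryos came from matings between Dis3+/- animals, the mothers having received PMSG and later hCG, and the study sequenced the RNA of single pre-implantation embryos on days 2.5 (E2.5) and 2.75 (E2.75) of development to find transcripts that change without DIS3. In the null allele, made with CRISPR-Cas9 and closed by non-homologous end joining, Dis3 is without exons 3 to 5. Polyadenylated RNA pulled out on beads went, with ERCC spike-ins, into template-switch cDNA and 18 cycles of PCR, and the DNA left behind was typed for the Dis3 allele. The WT group held 9 embryos (6 at E2.5 and 3 at E2.75), the Het group, Dis3+/-, 7 embryos (2 and 5), and the Null group, Dis3-/-, 7 embryos (4 and 3), all from the same kind of mating. Every mother carried a wild-type allele, so maternal Dis3 RNA may persist in Null embryos. In a separate experiment, mouse embryonic stem cells (mESCs) derived from Dis3 flox/flox blastocysts were transfected with Pou6f1-mCherry, driven by the CAG promoter, and chromatin bound by the fusion protein was precipitated with an antibody against mCherry. The peak lists of 2 replicates were used, each called against IgG from the same cells and against cells with mCherry only. The series holds a single anti-IgG library and a single anti-mCherry library of mCherry-only cells. The replicates may therefore share each control, and a peak found in both is then not independent of that control library.

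DIS3 is a catalytic subunit of the RNA exosome, which trims and destroys RNA from its 3′ end and, in DIS3, also cuts within it. The nuclear exosome is known for removing short-lived non-coding transcripts, such as promoter upstream RNAs, and unspliced or faulty mRNAs. Between E2.5 and E2.75 the mouse embryo compacts into a morula and its outer cells become polarised, while RNA of the oocyte has largely been replaced by RNA from the embryo's own genome.

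Levels are given as CPM, counts scaled to the library's total gene counts with TMM factors. This corrects for depth and composition but not for gene length. Where genes are set beside each other by CPM below, gene length is therefore part of the level. Dis3 itself stood at 18.0 to 146 CPM in the 9 WT embryos (median 106) and at 30.3 to 58.9 CPM in the 7 Het embryos (median 43.6). The 4 Null embryos of E2.5 had 15.9, 2.54, 0 and 14.3 CPM, and the 3 of E2.75 had 12.8, 21.4 and 10.1 CPM. The library labelled WT_E2.5 replicate 6 had the lowest WT value, 18.0 CPM from 186 counts, under every Het embryo and within the range of the Null embryos. Other measures of this library lay with the WT embryos: 22.9% of its reads were assigned to no gene, against 32.3% to 43.9% in the Null embryos, and 26 members were at 0, against 49 to 87, a number that the rule in part fixes since it used the library as WT. Its label was kept. With it left out, and at least 12 of the other 15 embryos required, 88 genes met the rule. Counts per gene cannot show whether the Dis3 reads of Null embryos come from the deleted exons. Dis3 also overlaps Pibf1 on the other strand, and where they overlap, counts made without regard to strand cannot assign a read by its strand.

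Markers of the pre-implantation embryo were present in every library. Between 5 and 6 of the 6 markers were detected per embryo, with a summed level of 2144 to 9308 CPM, led by Dppa5a and Pou5f1. Of 12 cumulus and granulosa cell markers, 1 to 5 were detected per embryo. Their sum of 91.9 to 431 CPM came mostly from Nr5a2, which embryos also express. Star was detected in 20 of the 23 embryos, at up to 24.1 CPM, and Has2 in 1 Null embryo, at 18.8 CPM. Foxl2 was detected in 5 embryos, Amh and Tnfaip6 in 3 each, and Lhcgr, Fshr and Cyp19a1 in 1 each. Ptx3, Inha and Cyp11a1 were at 0 in all 23 embryos. Blood cell markers summed to 0 to 5.69 CPM, with at most 2 of 5 detected, Hba-a1 reaching the highest level and Hbb-bs at 0 throughout. Oviduct markers summed to 0 to 15.0 CPM, with at most 3 of 5 detected, Muc16 reaching the highest level and Foxj1 at 0 throughout. The sums of Null embryos for these last 3 lists, 180 to 431, 0 to 2.04 and 0 to 12.2 CPM, overlapped those of WT embryos.

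Against their working description as genes lost in null embryos, no member was at 0 in every Null embryo. At 0 in exactly 4 of the 7 Null embryos stood 81 members, in 5 stood 25, and in 6 stood 9. At least 1 Null embryo lay at or above the WT and Het median for 89 members, and 75 members reached 5 counts in at least 2 Null embryos. Nor were they uniformly present in the others: 102 members were at 0 in at least 1 WT or Het embryo, 43 reached 5 counts in exactly 12 of the 16, and only Ppp2r3a reached them in all 16. For no member did the Null embryos all lie under every WT and Het embryo. The members are therefore better described as genes at low CPM that were intermittently detected, with the excess of zeros in Null embryos that the rule asks for.

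**Figure D1:**
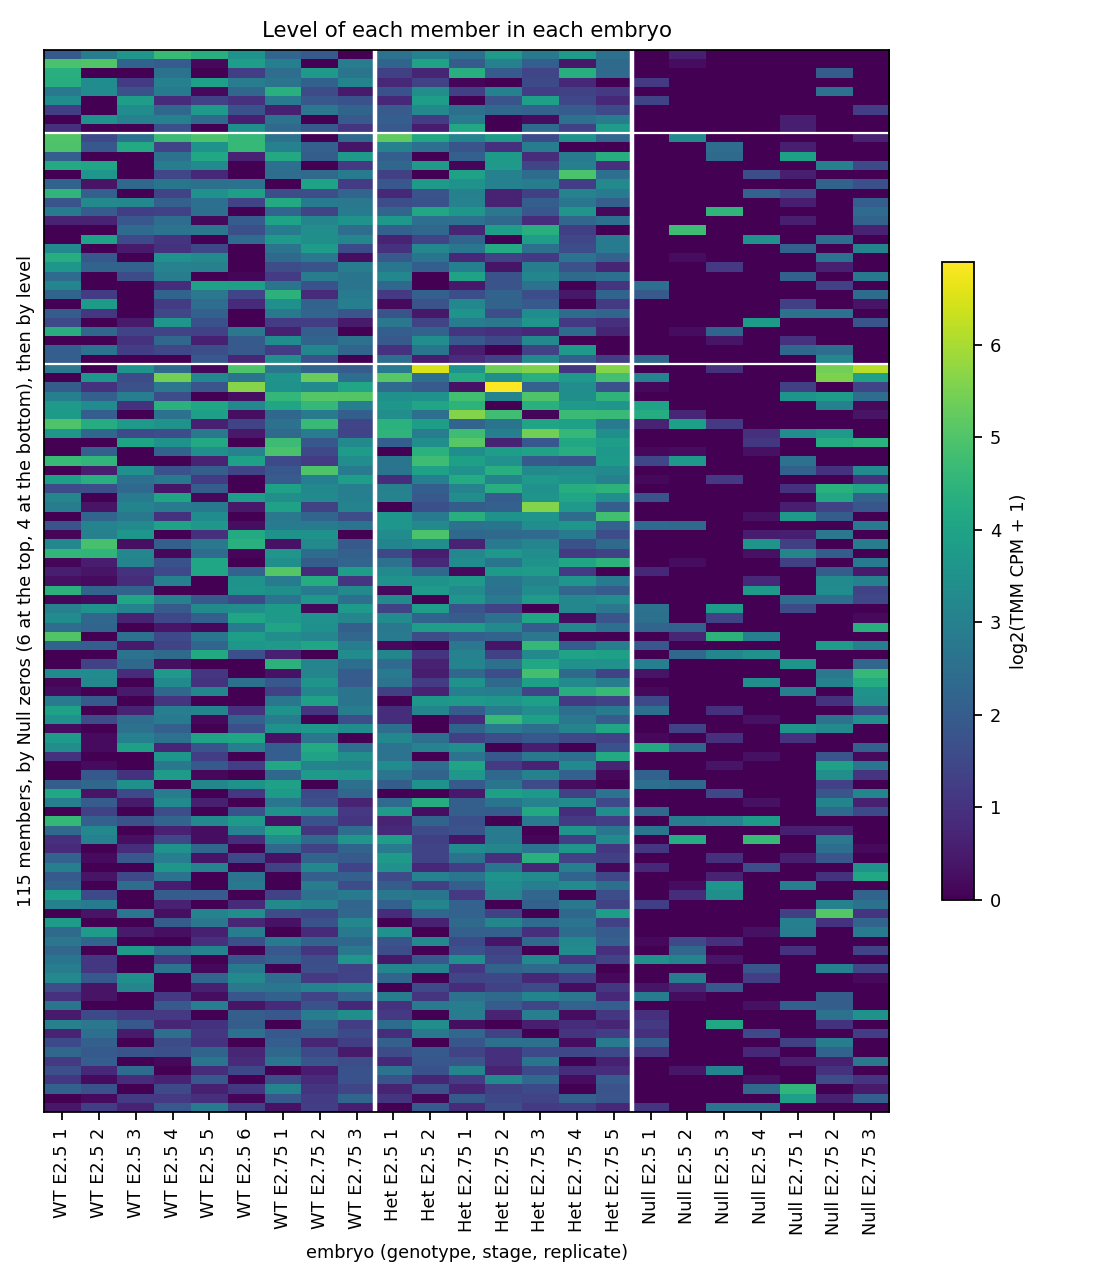
Level of each of the 115 members (lines, by number of Null zeros and then by level) in each of the 23 embryos (columns, by genotype and stage), as log2 of TMM CPM plus 1. White lines part the genotypes and the members with 6, 5 and 4 Null zeros. The darkest cells, at 0, fill most of the 7 Null columns and are scattered through the WT and Het columns.

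The mean level of a member over the 16 WT and Het embryos ran from 1.5 to 19.1 CPM (median 4.97), against a median of 32.6 CPM for the 9307 genes that met the level criterion. In Null embryos the median member had a mean of 1.59 CPM. The ratio of the Null mean to the WT and Het mean had a median of 0.322 and was under 0.5 for 80 members, under 0.25 for 47 and under 0.1 for 21, while 6 members (Spa17, Myo1d, Epg5, Lama4, Xlr5a and Atp6v1c2) had a higher mean in Null embryos. By CPM, which is not corrected for gene length, membership was most frequent at low levels. Among genes with a mean under 2 CPM, 7.84% (4 of 51) were members, and between 2 and 5 CPM also 7.84% (56 of 714). Between 5 and 10 CPM the share was 3.84% (46 of 1198), between 10 and 20 CPM 0.596% (9 of 1511), and above 20 CPM none of 5833. Zeros followed the same order in both groups of embryos. At 2 to 5 CPM, 7.42% of gene and embryo pairs were at 0 in WT and Het embryos and 19.6% in Null embryos, and above 20 CPM 0.0707% and 0.311%.

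**Figure D2:**
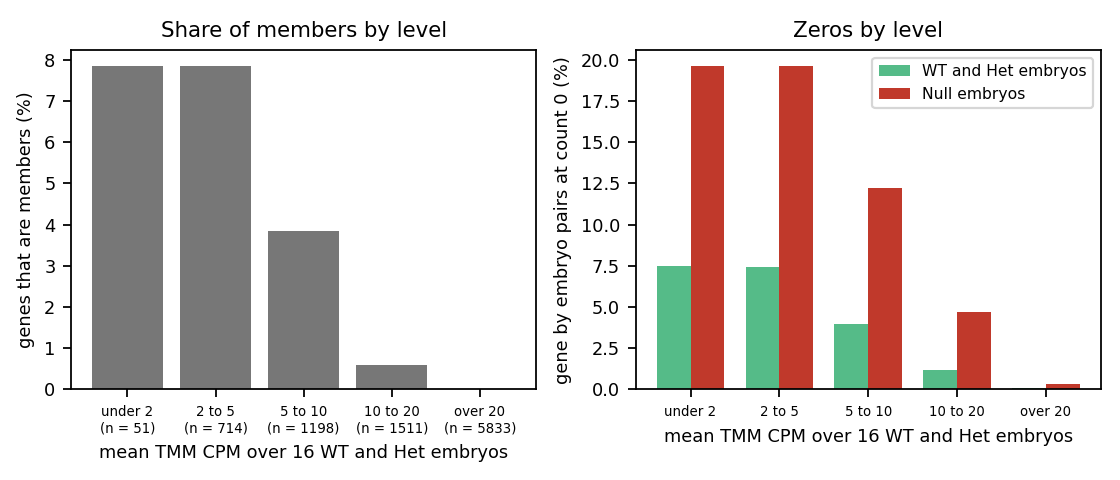
Genes that met the level criterion, in 5 bins by their mean TMM CPM over the 16 WT and Het embryos (n genes under each bar). The left bars give the share that are members (%), the right bars the share of gene by embryo pairs at a count of 0 (%) in WT and Het (green) and in Null (red) embryos. Both shares are alike in the 2 lowest bins and fall from there, and the Null bar is the higher one in every bin.

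The Null libraries were shallower. Total gene counts ran from 3.01M to 14M in WT and Het embryos (median 8.77M), and were 9.99M, 6.48M, 3.63M and 4.81M in Null replicates 1 to 4 of E2.5 and 1.91M, 1.69M and 7.05M in Null replicates 1 to 3 of E2.75. In these same libraries 71, 86, 87 and 84 and then 71, 55 and 49 members were at 0, against 5 to 34 in WT embryos (median 17) and 1 to 15 in Het embryos (median 9). The shallowest WT and Het libraries, Het_E2.75 replicate 2 with 3.01M and WT_E2.75 replicate 1 with 3.28M counts, had 10 and 7 members at 0. The rule asks for Null zeros and for counts in WT and Het embryos, so these numbers describe the choice and do not weigh depth. Summed over the members, 381 to 884 CPM were counted in WT and Het embryos (median 670) and 131 to 433 in Null embryos (median 159).

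To set each zero against depth, the count was computed that a member's mean share of the 16 WT and Het libraries would give in a library of that Null embryo's total. Of 805 pairs of a member and a Null embryo, 503 were at 0, and at 501 of these 3 or more counts would have been found and at 421 (83.7%) 10 or more, with a median of 23.4. With the mean share of the same stage, 384 zeros had 10 or more, with the median share 356, with ERCC counts in place of total counts 455, and with the lowest nonzero share of any WT or Het embryo only 10, since members varied widely from embryo to embryo. Every zero had 10 or more counts to be found for 57 members, and 74 members had at least 4 such zeros. The rule asks for counts in at least 12 of the 16 WT and Het embryos, so high numbers at these zeros are in part built in, and the part of depth was not settled by them. In WT and Het embryos, whose share was computed from the others, 203 of 206 member zeros also had 10 or more counts to be found.

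Zeros of this kind, among genes for which 10 or more counts were to be found, were also counted over all 9307 genes of the level criterion, which limits zeros in WT and Het embryos but not in Null embryos. On that footing they made up at E2.5 3.49% to 5.99% of such genes in the 4 Null embryos and 0.484% to 3.4% in the 8 WT and Het embryos, and at E2.75 1.38% to 2.39% in the 3 Null embryos and 0.183% to 1.14% in the 8 others. Library properties moved with the genotype as well. The share of reads assigned to no gene was 32.3% to 43.9% in Null libraries and 21% to 33.4% in WT and Het libraries, and the ratio of gene to ERCC counts was 13.2 to 29.7 in Null and 12.4 to 47.6 in WT and Het embryos. Their part in the zeros was not tested, and fewer cells per embryo and less RNA per cell cannot be told apart in these libraries. Counts are of amplified reads without molecular identifiers, so the limits given here cover counting error only.

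**Figure D3:**
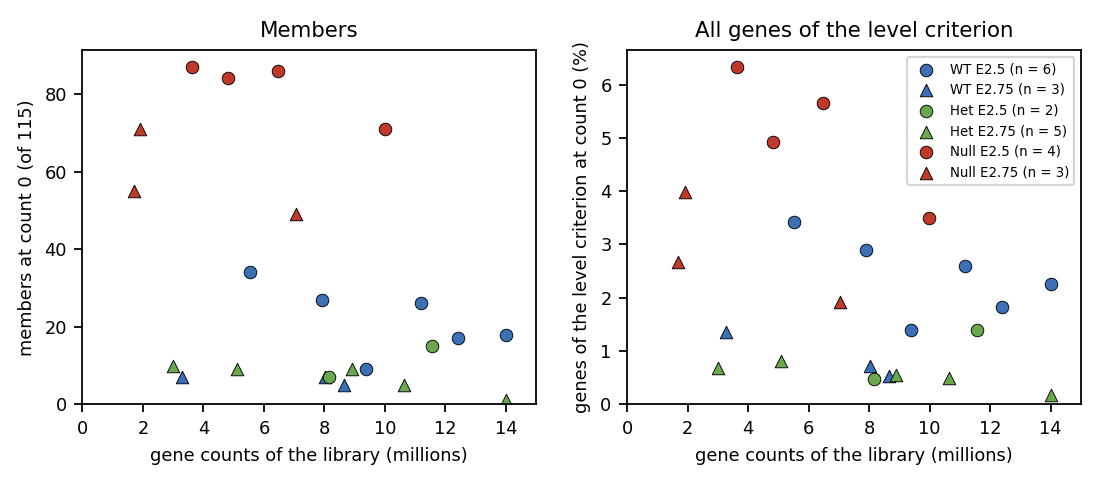
Number of members at a count of 0 (left, of 115) and share of all 9307 genes of the level criterion at 0 (right, %), by total gene counts of the library, 1 point per embryo (circles E2.5, triangles E2.75). On the left the 7 Null embryos (red) lie at 49 to 87 members and the 16 others at 1 to 34; on the right they overlap, at 1.92% to 6.34% and 0.183% to 3.43%.

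Zeros of the members were more frequent at the earlier stage in both groups of embryos. In Null embryos 71.3% of member and embryo pairs were at 0 at E2.5 and 50.7% at E2.75, and in WT and Het embryos 16.6% and 5.76%. All 4 Null embryos of E2.5 were at 0 for 23 members and all 3 of E2.75 for 14, and 9 members were at 0 in none of the Null embryos of E2.75. Over all 9307 genes of the level criterion, the mean share at 0 was also higher at E2.5. It was 5.1% at E2.5 and 2.86% at E2.75 in Null embryos, and 2.04% and 0.668% in WT and Het embryos. The rule pools the stages and asks for 4 Null zeros, which the 4 Null embryos of E2.5 can supply alone and the 3 of E2.75 cannot. That it takes in genes with most of their Null zeros at E2.5 is therefore in part built in.

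The 9 members at 0 in 6 Null embryos, singled out after their values were seen, are Pla2g7, Tmem139, Sox6, Pomk, Dsg2, Adgrg7, BC051665, Stc2 and Plgrkt. Pla2g7 encodes the secreted hydrolase that inactivates platelet-activating factor. It stood at 0 to 31.3 CPM in WT embryos (median 6.55) and 0.353 to 14.8 CPM in Het embryos (median 3.67), and had 1 count in 1 Null embryo, E2.5 replicate 2, and none in the other 6. Tmem139, a transmembrane protein, stood at 0 to 24.2 CPM in WT (median 6.5) and 4.70 to 12.4 CPM in Het embryos (median 5.94), and 3 counts were found in that same Null embryo and none in the others. Both genes were found in all but 1 of the 16 WT and Het embryos, mostly above their single Null value.

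Sox6, a transcription factor of the SoxD group known from muscle, cartilage and erythroid cells, stood at 0 to 10.7 CPM in WT (median 4.19) and 0 to 6.51 CPM in Het embryos (median 3.18), with 1 count in Null E2.75 replicate 1. Pomk, the kinase that phosphorylates O-mannose on dystroglycan, ran from 0 to 9.75 CPM in WT (median 1.11) and 0 to 16.2 CPM in Het embryos (median 2.81), again with 1 count in that Null embryo. At 0 in 3 and 4 of the WT and Het embryos, these genes overlap the Null group more. Sox6 also overlaps an antisense gene, Sox6os, and Pla2g7 a non-coding gene, 1700071M16Rik, so their reads are uncertain by strand.

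Dsg2, a cadherin of desmosomes, had 0 to 19.1 CPM in WT (median 4.50) and 0.646 to 19.5 CPM in Het embryos (median 3), and 6 counts (3.06 CPM) in Null E2.75 replicate 2. Adgrg7, an adhesion G-protein-coupled receptor, ran from 0.102 to 19.9 CPM in WT (median 3.86) and 1.26 to 9.69 CPM in Het embryos (median 1.59), with 10 counts (5.10 CPM) in that same Null embryo. The single Null embryo with counts lay within the range of the others for both genes. Stc2, a secreted stanniocalcin, stood at 0 to 13.7 CPM in WT and Het embryos (median 2.04) and had 16 counts in Null E2.5 replicate 1 only. Plgrkt, a membrane receptor for plasminogen, stood at 0 to 12 CPM (median 3.55) and had 10 counts in Null E2.75 replicate 3 only. BC051665 had 1.23 to 18.5 CPM in WT (median 7.2) and 0 to 1.90 CPM in Het embryos (median 0.706), and 12 counts in Null E2.5 replicate 1. Its 7 Het embryos all lay under the WT median, the only gene of the 9 where this was so. BC051665 also differed by stage, with WT and Het medians of 6.83 CPM at E2.5 and 1.30 CPM at E2.75, and most Het embryos were of E2.75.

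Another set, of members under 5 counts in every Null embryo, held 9 genes, also noticed after the fact: Pla2g7, Tmem139, Sox6 and Pomk, with Car4, Tstd3, Stard5, Mtrf1 and Mbl2. Car4, a carbonic anhydrase anchored to the outer face of the cell membrane, stood at 0 to 29.4 CPM in WT (median 3.54) and 0 to 20.3 CPM in Het embryos (median 13.5), and 1 count was found in each of 3 Null embryos of E2.5 and none in the other 4. Its Null values of at most 0.234 CPM lay under all WT and Het embryos but the 3 at 0. Stard5, a sterol-binding protein with a START domain, reached 11.2 CPM in WT and Het embryos (median 3.55) and at most 1.21 CPM in Null embryos. Mtrf1, a mitochondrial release factor, had a median of 2.64 and at most 1.47 CPM, and Mbl2, a mannose-binding lectin, 2.76 and at most 0.981 CPM, in the same order.

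**Figure D4:**
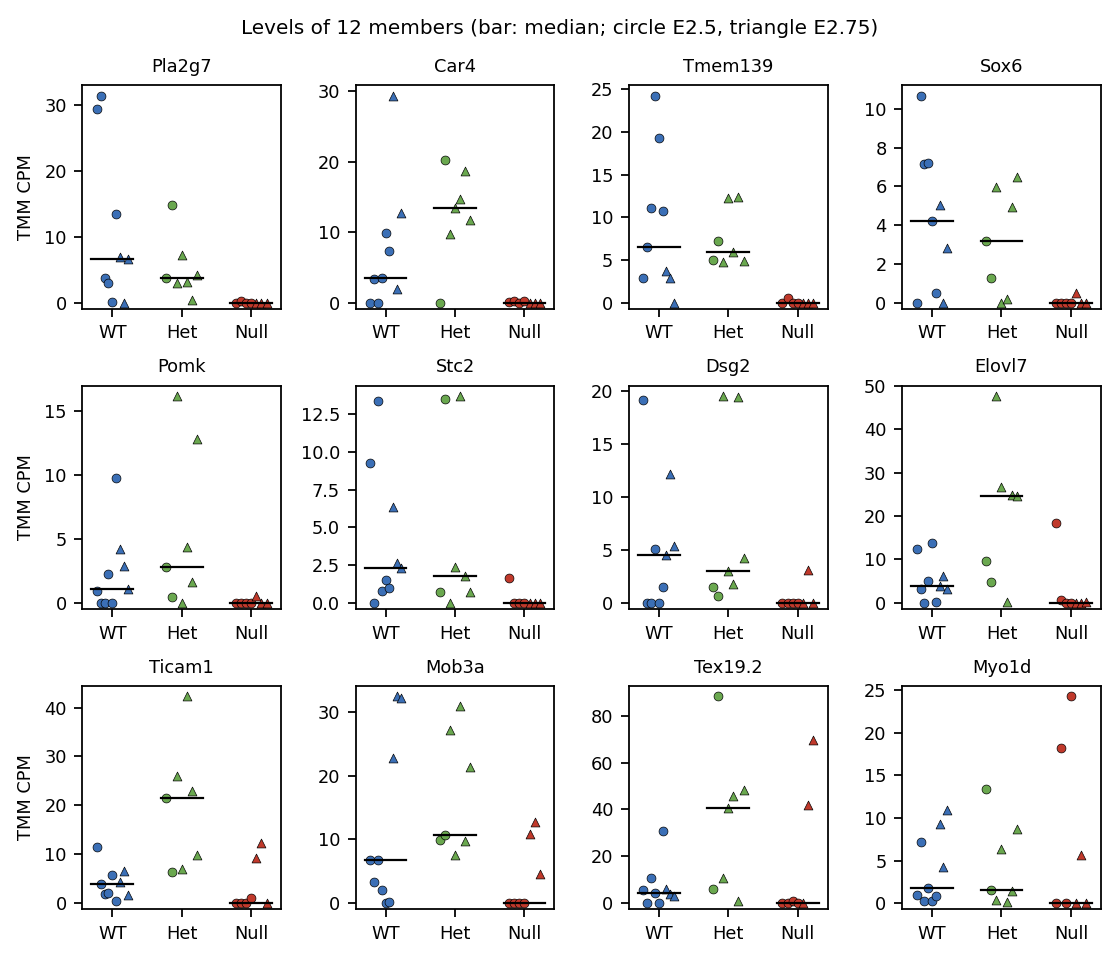
TMM CPM of 12 members in each embryo by genotype (WT blue, n = 9; Het green, n = 7; Null red, n = 7; circles E2.5, triangles E2.75; bar, median). Pla2g7, Car4, Tmem139, Sox6 and Pomk sit near 0 in all Null embryos, while Elovl7, Tex19.2 and Myo1d are at 0 in most Null embryos and at 18.3, 69.6 and 24.3 CPM in their highest.

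By textbook role, grouped after the members were known, genes of lipid metabolism were Pla2g7, Elovl7, Elovl2, Lpcat2, Daglb, Stard5 and Atp8b1. Elovl7, which elongates long-chain fatty acids, stood at 0 to 13.8 CPM in WT (median 3.97) and 0.0825 to 47.7 CPM in Het embryos (median 24.6). In Null embryos it was at 18.3 CPM in E2.5 replicate 1, at 0.676 CPM in E2.5 replicate 2, at 0.275 CPM in E2.75 replicate 3 and at 0 in the other 4, so 1 Null embryo lay above every WT embryo. Of 50 genes of a list of lipid and sterol metabolism that met the level criterion, Elovl7 and Pla2g7 were members.

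Genes that build or trim glycans were Chst12 and Extl3, which make chondroitin and heparan sulfate, Xylt2, which starts their chains, Man2a1 and Manea, mannosidases of N-glycans, Slc35a1, which carries CMP-sialic acid into the Golgi, and Pomk. Chst12 stood at 0 to 30.8 CPM in WT (median 2.65) and 5.26 to 19.5 CPM in Het embryos (median 9.35), at 0 in the 4 Null embryos of E2.5 and at 3.43, 1.02 and 8.95 CPM in those of E2.75. Extl3 stood at 0 to 9.31 CPM in WT (median 3.76) and 4.41 to 26.8 CPM in Het embryos (median 10.8), at 0.234 CPM in Null E2.5 replicate 4, at 12.3 and 3.06 CPM in replicates 1 and 2 of E2.75 and at 0 in the other 4. Slc35a1 reached 7.65 CPM in 1 Null embryo, E2.75 replicate 2, against a WT and Het median of 3.78 CPM. For these genes the Null embryos of E2.75 overlapped WT and Het embryos and those of E2.5 stood at or near 0.

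Kinase, phosphatase and small-GTPase signalling was represented by Ppp2r3a, Dusp18, Rps6ka4, Stradb, Mapkbp1, Mob3a, Rassf5, Dab2ip, Fgd1, Mcf2 and Dnmbp. Ppp2r3a, a regulatory subunit of protein phosphatase 2A, stood at 0.511 to 30.6 CPM in WT (median 10.5) and 3.74 to 20.1 CPM in Het embryos (median 13.3). The 4 Null embryos of the earlier stage showed 0.621, 13.9, 1.21 and 0 CPM and the 3 of the later stage none, so its zeros lay mainly at E2.75. Mapkbp1, a scaffold of JNK signalling, stood at 0 to 47.8 CPM in WT and Het embryos (median 4.62), at 0 in the Null embryos of E2.5 and at 0.490, 1.53 and 2.62 CPM in those of E2.75. Fgd1, which activates Cdc42, had a median of 4.14 CPM in WT and Het embryos and 155 counts (26.2 CPM) in Null E2.5 replicate 2, above every WT and Het embryo, with 4 counts in 1 further Null embryo and 0 in 5. Rassf5, a Ras effector, stood at 0 to 5.56 CPM in WT and Het embryos (median 1.67) and reached 5.78 CPM in Null E2.75 replicate 3. Plekhh3 reached 7.99 CPM there, within its WT and Het range of 0 to 16.2 CPM. The single Null embryo with the most counts thus lay above every WT and Het embryo for Fgd1 and Rassf5 and within their range for Plekhh3.

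Receptors and their signalling partners were Ticam1, Adgrg7, Gpr22, Drd3, Smad5 and Smurf1. Ticam1, the adaptor TRIF of Toll-like receptors, stood at 0.386 to 11.5 CPM in WT (median 3.90) and 6.37 to 42.3 CPM in Het embryos (median 21.5), at 0.935, 9.32 and 12.2 CPM in 3 Null embryos and at 0 in 4. Gpr22, an orphan receptor, had 0 to 9.85 CPM in WT and Het embryos (median 1.77) and 6.42 CPM in Null E2.5 replicate 2. Both overlapped between Null and WT embryos. Adgrg7 and Gpr22 were the members among 78 ligand and receptor genes at the level criterion.

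At the cell surface and in the matrix were Dsg2, the tetraspanins Cd82 and Tspan6, the basement membrane proteins Nid2 and Lama4, the collagen gene Col11a2, the protease inhibitor Timp1 and the focal adhesion protein Zyx. Cd82 stood at 0 to 25.4 CPM in WT (median 8.87) and 0.600 to 33.2 CPM in Het embryos (median 9.78), and 1.17, 17.9 and 20.0 CPM were counted in 3 Null embryos with 0 in the other 4. Nid2, nidogen 2, stood at 0 to 32.8 CPM in WT and Het embryos (median 2.68) and at most at 3.06 CPM in Null embryos. It was the member among 25 primitive endoderm and FGF genes, and Dsg2 the member among 45 junction and polarity genes. Ifitm1, an interferon-induced membrane protein and the member among 26 inner cell mass and pluripotency genes, stood at 0 to 31.2 CPM in WT and Het embryos (median 4.38) and at 21 CPM in Null E2.5 replicate 3 and 6.78 CPM in replicate 4. Cd82, with 145 counts in Null E2.75 replicate 3, was among the members whose Null embryos reached well into the WT and Het range.

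For transport and the cytoskeleton, Kif3b is a motor subunit of kinesin-2, Tube1 epsilon-tubulin, Myo1d a class I myosin, Actr3b a relative of an Arp2/3 subunit, Abcc4 an exporter of organic anions and Tmem38a an intracellular cation channel. Kif3b stood at 0 to 15.5 CPM in WT and Het embryos (median 8.22), at 2.48 CPM in Null E2.5 replicate 1, at 16.3 and 3.58 CPM in replicates 2 and 3 of E2.75 and at 0 in the other 4 Null embryos. Myo1d stood at 0.0825 to 13.5 CPM in WT and Het embryos (median 1.62) and at 18.3, 24.3 and 5.61 CPM in 3 Null embryos, so 2 of the 7 lay above every WT and Het embryo while the other 4 were at 0. Tube1 reached 16.5 CPM, from 120 counts, in Null E2.75 replicate 3, above its WT and Het range of 0 to 10.5 CPM. Tmem38a stood at 2.69, 12.8 and 6.75 CPM in 3 Null embryos against a WT and Het median of 3.72 CPM, and Abcc4 at 6.87, 1.02 and 3.58 CPM in those of E2.75 against 2.71 CPM. Kif3b and Tube1 were the members among 133 centrosome, cilia and microtubule genes, Myo1d among 26 apical membrane genes, Slc35a1 and Abcc4 among 222 carriers and channels, and Tmem110, Tmem139 and Tmem38a among 123 Tmem genes.

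Nuclear regulators were Sox6, the zinc finger genes Zfp438, Zfp937, Zfp455 and Zfp993 (4 of 284 of that family at the level criterion), Rbak, Rsl1, Snai3, Creb3l4, Rai1 and the cyclin Ccnd2. Zfp438 stood at 0 to 19.5 CPM in WT (median 5.87) and 0.856 to 17.8 CPM in Het embryos (median 7.50), and at most at 1.21 CPM in Null embryos. Zfp937 was found in all 16 WT and Het embryos, at 0.600 to 17.5 CPM (median 4.01), and in 2 Null embryos, at 0.490 and 3.17 CPM. Zfp455 and Zfp993 had medians of 3.14 and 1.93 CPM in WT and Het embryos and reached 5.10 and 3.57 CPM in Null embryos. Ccnd2, cyclin D2 and the member among 93 cell cycle genes, stood at 0 to 17.4 CPM in WT and Het embryos (median 3.91) and at 17.3 CPM in Null E2.5 replicate 1. Otud3, a deubiquitinase and the member among 204 ubiquitin genes, ran from 0.102 to 15.1 CPM (median 4.22) and had 1 and 26 counts in 2 Null embryos of E2.75. The highest Null embryo of Zfp438 lay under the WT and Het median, and that of Ccnd2 near the top of the WT and Het range.

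Several of the members with the highest mean CPM belong to families of near copies or overlap other genes, so their counts are uncertain. Tex19.2, a placental mammal gene of germ cells and placenta with a close paralog, had the highest mean, 19.1 CPM, from 0 to 30.7 CPM in WT (median 4.21) and 1.06 to 88.4 CPM in Het embryos (median 40.8), and 41.8 and 69.6 CPM in 2 Null embryos of E2.75. B020004J07Rik, of the Prame family of multicopy genes, stood at 0.258 to 118 CPM in WT and Het embryos (median 3.87) and at most at 1.65 CPM in Null embryos. Xlr5a, Gm8909 and Bglap3 also have close copies. Pald1, a phosphatase-like protein with a mean of 15.5 CPM, stood at 0 to 42.4 CPM in WT and Het embryos (median 11.1) and at 44.9 CPM in Null E2.75 replicate 2. Tmem110, a membrane protein of the endoplasmic reticulum, stood at 0 to 23.2 CPM (median 12.2) and at 14.6 CPM, from 141 counts, in Null E2.5 replicate 1. The open reading frame gene 1700019D03Rik ran from 0 to 25.8 CPM (median 7.38) and reached 12 CPM in a Null embryo. The highest Null embryo of Pald1 thus lay above every WT and Het embryo, and that of the others within their range.

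The 3 members with the highest mean at exactly 4 Null zeros, just inside the rule, were Tex19.2, Pald1 and B020004J07Rik. Just outside it, 197 genes were at 0 in exactly 3 Null embryos, led by Tceal8 (median 30.8 CPM in WT and Het embryos and 10.6 CPM in Null embryos), Vps13c (26.6 and 3.51 CPM) and Trp53bp2 (15.6 and 0.507 CPM). A further 58 genes had 5 counts in exactly 11 of the 16 WT and Het embryos, led by Chit1, Tst and Calhm3, with WT and Het medians of 3.73, 7.03 and 8.78 CPM and a Null median of 0 CPM each. More genes thus lay 1 Null zero outside the rule than inside it.

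Over the 24 gene lists examined, 24 of the 1753 listed genes at the level criterion were members (1.37%, against 1.24% of all 9307), spread over 13 lists. Without a member were the lists of trophectoderm regulators (25 genes at the level criterion), epithelial proteases (10), endocytosis and lysosome (35), DNA repair (79), mitochondrial metabolism (78), maternal-effect and oocyte genes (17), 2-cell stage genes (6), p53 targets and apoptosis (40), the RNA exosome and its cofactors (25), claudins and keratins (6) and cytochrome P450, aldehyde and glutathione enzymes (26). No list held more than 4 members, and most members were on none.

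On the X chromosome lay 10 members (Cd99l2, Fgd1, Mcf2, Mospd2, Nudt11, Pdk3, Timp1, Tspan6, Tsx and Xlr5a), 8.70% of the 115 against 3.03% of the 9307. Of these, 5 to 7 were at 0 in each Null embryo, 0 to 5 in each WT and 0 to 2 in each Het embryo. Xist, the RNA that coats the inactive X chromosome of female cells, ranged from 0.411 to 2739 CPM in WT, 1.73 to 1763 CPM in Het and 2.17 to 2723 CPM in Null embryos, so both low and high embryos occurred in each genotype. The part of embryo sex in these zeros was not tested.

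Exons, lengths and overlaps were near those of other genes at the level criterion. The largest number of exons in a transcript had a median of 8 in members and 10 in the 9307, the longest transcript 3048 and 3387 bases, and the gene 22653 and 24854 bases. A gene on the opposite strand overlapped 45.2% of the members (52) and 44.8% of the 9307. Promoter windows, from 250 bases before to 50 after the start, were at hand for 92 members, exactly 80% of them, 3 matched through a synonym, and for 7569 of the 9307 genes. Their GC content had a median of 59.2% in members and 61.3% in the 7569, and the ratio of observed to expected CpG 0.638 and 0.796. The quartiles overlap widely, at 0.383 to 0.790 and 0.629 to 0.933 for CpG. In the 601 windows of other genes between the members' quartiles of level, the median GC content was 60.7% and the median CpG ratio 0.716.

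The letters of 7 motifs were searched on both strands of these windows. TATAAA, the TATA box, was found in 12% of the members' windows (11), 6.39% of the 7569 and 13.6% of all 32851 windows of the table. CCAAT was found in 41.3%, 39.3% and 37.4%, AGATAA, known from GATA factors, in 13%, 5.91% and 11.2%, CATTCC, a TEAD motif, in 13%, 11.6% and 14.7%, and GCCNNNGGC, an AP-2 motif, in 21.7%, 25.4% and 16.6%. The octamer ATGCAAAT stood in 1 member's window (1.09%, 1.24% and 1.74%) and TAATGAG, a POU6 motif, in 2 (2.17%, 1.53% and 3.04%). No motif of the 7 lies within another, though matches may overlap. A match is a description of letters, not a bound site.

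POU6F1 peaks at start sites took no part in the choice of members, and are given as counts with no test. A peak of both replicates called against IgG lay within 1 kb of a start site for 62 of the 115 members (53.9%). The same held for 78.2% of the 9307 genes at the level criterion, for 66.5% of the 753 of these that were not members but lay between the members' quartiles of level, and for 49.8% of all 20604 spliced coding genes. With peaks against both IgG and the mCherry-only cells the share was 21.7% (25 members), 29.8%, 23.4% and 16.2%. Replicate 1 had 82694 peaks against IgG and replicate 2 had 24524, and against mCherry 31348 and 3630. The members' share lay below that of the 9307 genes under both controls, and closer to that of genes at their level.

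**Figure D5:**
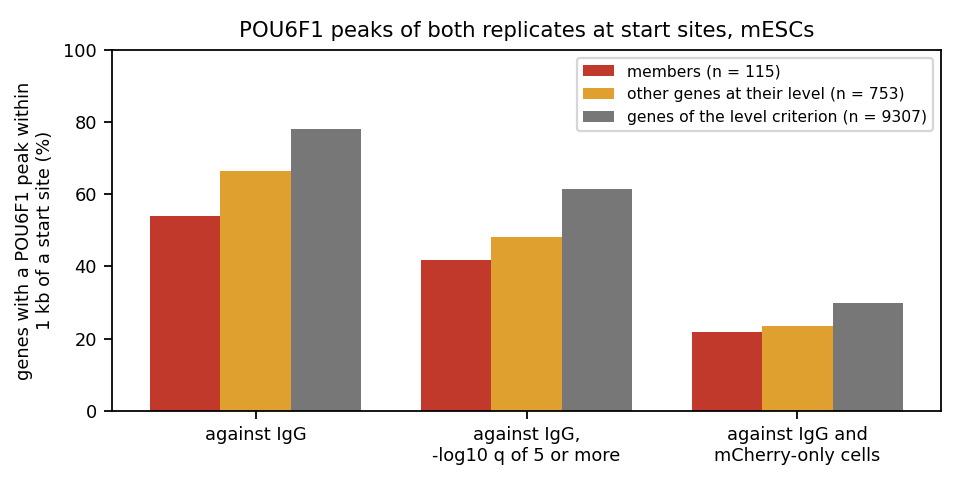
Share of genes (%) with a POU6F1 peak of both replicates within 1 kb of a start site in mESCs, for the 115 members (red), 753 other genes at their level (yellow) and the 9307 genes of the level criterion (grey), by control and threshold. The members' bar is the lowest in each of the 3 settings, at 53.9%, 41.7% and 21.7%.

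Where a gene had several overlapping pairs of peaks, the pair with the highest mean enrichment was taken. Enrichment over IgG in these pairs was 6.09-fold to 48.3-fold in replicate 1 (median 16.3) and 3.62-fold to 19.4-fold in replicate 2 (median 5.84), and the summit of replicate 1 lay within 100 bp of the nearest start site for 43 of the 62 genes, at a median distance of 49.5 bp. The highest were at Ppp2r3a (48.3-fold and 14.2-fold), Sgtb, a co-chaperone (41.8-fold and 16.3-fold), Extl3 (38.6-fold and 19.4-fold), Smurf1, a ubiquitin ligase of the BMP pathway (43.7-fold and 13.5-fold), Mob3a (41.1-fold and 9.87-fold) and Chst12 (31.6-fold and 12.7-fold). All 6 also had peaks of both replicates against the mCherry-only cells. Of the members named above for 6 Null zeros, Stc2 (13.9-fold and 5.49-fold) and Plgrkt (6.09-fold and 3.95-fold) had a peak of both replicates and the other 7 had none. In the embryos, Pou6f1 RNA was counted at 3.32 to 55.0 CPM in WT and Het (median 14) and at 17.6 to 78.0 CPM in Null embryos (median 28.8), with all 7 Null embryos above that WT and Het median. The cells of the peaks expressed the fusion from a plasmid and were not embryos.

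Promoter windows of 5 members are shown because they span the range of peaks and motifs, chosen after these were seen. They are 300 bases of GRCm38.p6 from RefSeq, 5′ to 3′ on the gene's own strand, and capitals mark the named motif on either strand. Mob3a (chr10:80701771-80702070, minus strand) and Chst12 (chr5:140505359-140505658, plus strand) carry CCAAT, once and, on opposite strands, at 2 places, under peaks of both replicates and both controls. Dusp18 (chr11:3894990-3895289, plus strand) lies under such peaks without any of the 7 motifs. Car4 (chr11:84957504-84957803, plus strand) carries TATAAA near the end of the window, after the start site, and overlaps a peak of replicate 1 only. Sox6 (chr7:116038695-116038994, minus strand) carries TAATGAG and overlaps a peak of neither replicate.
Mob3a: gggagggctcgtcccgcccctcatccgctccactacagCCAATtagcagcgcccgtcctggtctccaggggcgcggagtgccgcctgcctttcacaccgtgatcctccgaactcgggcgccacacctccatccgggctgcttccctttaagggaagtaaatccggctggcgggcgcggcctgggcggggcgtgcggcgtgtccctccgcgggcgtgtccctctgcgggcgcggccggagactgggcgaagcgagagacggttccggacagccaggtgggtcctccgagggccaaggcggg
Chst12: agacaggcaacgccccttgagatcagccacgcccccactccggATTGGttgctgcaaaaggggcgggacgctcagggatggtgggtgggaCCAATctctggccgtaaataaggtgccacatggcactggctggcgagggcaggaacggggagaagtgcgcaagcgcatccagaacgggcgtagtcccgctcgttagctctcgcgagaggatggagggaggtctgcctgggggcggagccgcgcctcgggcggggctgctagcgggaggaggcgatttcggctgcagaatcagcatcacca
Dusp18: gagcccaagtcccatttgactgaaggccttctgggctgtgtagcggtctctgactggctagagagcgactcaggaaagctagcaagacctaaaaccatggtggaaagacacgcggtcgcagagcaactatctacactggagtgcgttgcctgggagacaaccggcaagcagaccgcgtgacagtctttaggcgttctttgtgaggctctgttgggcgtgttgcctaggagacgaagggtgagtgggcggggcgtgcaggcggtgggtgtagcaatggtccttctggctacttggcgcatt
Car4: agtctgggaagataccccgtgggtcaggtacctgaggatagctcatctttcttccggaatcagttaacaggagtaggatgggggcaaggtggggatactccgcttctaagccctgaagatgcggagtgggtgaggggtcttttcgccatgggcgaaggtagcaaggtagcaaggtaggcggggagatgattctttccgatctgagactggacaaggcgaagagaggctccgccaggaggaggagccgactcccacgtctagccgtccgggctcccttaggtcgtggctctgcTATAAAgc
Sox6: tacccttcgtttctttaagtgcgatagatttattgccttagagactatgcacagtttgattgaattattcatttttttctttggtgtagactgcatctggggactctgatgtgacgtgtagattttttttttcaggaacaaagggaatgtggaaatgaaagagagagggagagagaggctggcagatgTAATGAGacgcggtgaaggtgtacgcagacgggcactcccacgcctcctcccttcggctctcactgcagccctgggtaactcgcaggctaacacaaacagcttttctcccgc

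To describe the contrast that chose the members, calls were counted in an edgeR quasi-likelihood fit. Between Null and Het embryos, the fit over 13415 genes (called at adjusted p below 0.1 with a log2 fold change above 1 or under -1) placed 13 members lower and none higher, where 2.06% of all genes were lower, 3.67% higher and 5.73% either. Between Null and WT embryos 13 members were lower and none higher, where 1.59% of all genes were lower, 3.66% higher and 5.25% either. The members' median log2 fold change was -1.70 against Het and -1.45 against WT embryos, with 0.02 and -0.02 over all genes. These comparisons share the Null embryos, and both used the values that chose the members, so nothing is read from them.

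Het and WT embryos were compared with a test, though the rule, which asks for counts in at least 12 of the 16 together, holds only genes with counts in some embryos of each genotype and so limits the differences that members can show. No member was called by edgeR (0 of 115, background 0% of 13415 genes), with 2 members and 934 genes (6.96%) at an unadjusted p under 0.05. DESeq2 called 1 member and 65 genes, 0.193% of the 33616 genes with at least 1 count. That member, BC051665, was lower in Het embryos by both tools, with a log2 fold change of -3.46 (SE 0.874, adjusted p = 0.0389) by DESeq2 and -3.45 (SE 1.09, adjusted p = 0.537) by edgeR. The other member at an unadjusted p under 0.05 was Ticam1, at 2.201 (SE 0.96, adjusted p = 0.683 by edgeR). The members' median log2 fold change was 0.19, against -0.03 over all genes, with library sizes from the ERCC spike-ins 0.83 against 0.71, and with stage as a covariate -0.14 against -0.01. Genotype and stage were unbalanced, with 6 of 9 WT and 2 of 7 Het embryos at E2.5, and the sign of the members' median turned with stage in the fit. Without the library labelled WT_E2.5 replicate 6, 0 members were called by edgeR as well.

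Stage was compared within the 16 WT and Het embryos, with genotype as a covariate. edgeR called 4 of the 115 members (3.48%), 3 higher and 1 lower at E2.75, where 11.4% of the 11573 genes tested were called (6.48% higher and 4.93% lower). This share below the background may be in part built in, since 12 of 16 embryos with counts leave at least 4 in each stage. DESeq2 called 10 of 114 members and 7.68% of 31584 genes, a wider set that took in every gene with at least 1 count. Without the filter on low counts, edgeR called 4 members and 7.59% of 31584 genes. Shares over this wider set are not comparable with the 11.4%, so no order of members and background is read from DESeq2. Mob3a, of the MOB kinase activator family, stood at 0 to 10.6 CPM in the 8 embryos of E2.5 (median 5.05) and 7.50 to 32.5 CPM in the 8 of E2.75 (median 24.9), a log2 fold change of 2.23 (SE 0.72, adjusted p = 0.0468). Dusp18, a dual-specificity phosphatase, rose from 0 to 6.97 CPM (median 2.62) to 6.76 to 21 CPM (median 12.2), a log2 fold change of 2.04 (SE 0.69, adjusted p = 0.0574). Rps6ka4, a kinase downstream of MAP kinases, went from 0 to 4.28 CPM (median 0.388) to 4.64 to 20.7 CPM (median 9.05), a log2 fold change of 2.94 (SE 0.99, adjusted p = 0.0570). AU021092 fell from 1.88 to 35.8 CPM (median 24.2) to 0 to 12.6 CPM (median 4.63), a log2 fold change of -2.30 (SE 0.79, adjusted p = 0.0606). The stages of Rps6ka4 did not overlap, those of Mob3a, Dusp18 and AU021092 did.

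In Null embryos, Mob3a and Dusp18 had counts only at E2.75. All 4 Null embryos of E2.5 were at 0 for Mob3a and Dusp18, at least 8.18-fold and 4.49-fold under the WT and Het mean of that stage when 3 counts are allowed in each Null library. At E2.75 Mob3a stood at 10.8, 12.8 and 4.55 CPM and Dusp18 at 0.981, 19.9 and 15.8 CPM, so their Null embryos overlapped the others of that stage. These values are part of the choice and carry no test.

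Leaving out 1 embryo ended some stage calls, most of them at an adjusted p just past 0.1, while the fold changes stayed near those of all embryos. Without WT_E2.75 replicate 1, WT_E2.75 replicate 3 or Het_E2.5 replicate 2 there were 2 calls each, and without WT_E2.5 replicate 4 there were 7. The share of all genes called in these fits is not given, so whether the members moved apart from other genes cannot be read. The call of Mob3a was lost without WT_E2.75 replicate 2 or 3 (log2 fold change 2.07 in both, adjusted p = 0.105 and 0.104). Dusp18 was lost without WT_E2.75 replicate 1 (1.81, 0.147) or replicate 2 (2.04, 0.104) or Het_E2.5 replicate 2 (1.96, 0.120), and Rps6ka4 without WT_E2.75 replicate 1 (2.44, 0.166) or Het_E2.5 replicate 2 (2.77, 0.115). AU021092 was lost without WT_E2.75 replicate 3 (-2.40, 0.112) or Het_E2.5 replicate 1 (-2.22, 0.143). Without the library labelled WT_E2.5 replicate 6, 5 members were called, where 12.4% of all genes were. In the 9 WT embryos alone none of the 4 was called, at log2 fold changes of 3.27 for Mob3a (adjusted p = 0.116), 2.39 for Dusp18 (0.303), 3.62 for Rps6ka4 (0.245) and -2.60 for AU021092 (0.289), where 6.76% of all genes were called. With replicate number as a block AU021092 was not called (-1.86, 0.194). In the fit of all 16 embryos the median log2 fold change of the members was 0.44, against 0.04 over all genes. DESeq2 called 10 members, 7 higher and 3 lower at E2.75, where it called 7.68% of the 31584 genes with at least 1 count. ERCC library sizes moved the median of all genes to 0.73 and that of the members to 1.22, with 15 members called, all higher, where 22.7% of all genes were higher and AU021092 was not called (adjusted p = 0.153).

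Whether a choice made at 1 stage holds at the other was examined after the data had been seen, with genes chosen by the counts of 1 stage and the Null embryos of the other stage tested by edgeR against its WT and Het embryos. At E2.5, 121 genes had 5 counts in at least 6 of the 8 WT and Het embryos and 0 in at least 3 of the 4 Null embryos, 48 of them members. Of the 121 genes, 108 passed the filter on low counts at E2.75, where 3 were lower, 2.78% against 2.83% of all genes tested and 3.98% of those that met the level part of this choice. Of the 3, Tmem139 and Pla2g7 are members whose Null zeros at E2.75 the rule also used, so nothing is read from this share. In the other direction, 226 genes were chosen at E2.75 (0 in at least 2 of 3 Null embryos), 48 of them members, and of 155 tested at E2.5 5 were lower, 3.23% against 1.04% of all genes and 1.17% of those that met the level part. All 5 are members, whose Null zeros at E2.5 the rule also used, so nothing is read from this share. None was higher in either direction, and 13 and 19 of the tested genes had an unadjusted p under 0.05, 12.04% and 12.3% against 18.1% and 14.1% of all genes tested.

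Of the genes lower at the other stage, Xkr8 alone was not a member. Xkr8, a phospholipid scramblase of the Xkr family, stood at 9.60 to 32.4 CPM in WT and Het embryos of E2.75 (median 13.4) and at 0.981 to 4.41 CPM in the 3 Null embryos, under all of them, with a log2 fold change of -2.68 (SE 0.65, adjusted p = 0.0302).

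The others, Tmem139, Pla2g7, Tstd3, Adgrg7 and Plgrkt, are members, and the rule used their Null values of both stages, so their values are given with no test and support nothing apart from the choice. Tmem139 stood at 0 to 12.4 CPM in the 8 WT and Het embryos of E2.75 (median 4.77) and 2.84 to 24.2 CPM in the 8 of E2.5 (median 8.96), with the 4 Null embryos of E2.5 all under the latter. Pla2g7 stood at 0.102 to 31.3 CPM in WT and Het embryos of E2.5 (median 8.56), where the Null embryos overlapped the lowest of them. Tstd3, with a rhodanese-like domain, stood at 0.144 to 16 CPM in WT and Het embryos of E2.5 (median 7.75) and at 0 to 0.911 CPM in the Null embryos. Adgrg7 and Plgrkt, at 0 in the 4 Null embryos of E2.5, had medians of 4.82 and 3.46 CPM in the 8 others. With the stricter choice of genes at 0 in all Null embryos of 1 stage, 0 and 2 genes were lower at the other, where 2.83% and 1.04% of all genes tested were. Fewer genes were chosen, and their share is not given, so nothing is read from these counts.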

How the data were processed

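The authors deposited 1 table of raw counts per embryo, made by trimming with Cutadapt 3.4, alignment to GRCm38 with STAR 2.7.8a and counting of reads per gene, without regard to strand, with HTSeq 0.11.4. The authors also deposited POU6F1 peaks called per replicate with MACS2 2.2.7.1, with the fold enrichment over the control at each summit, and the −log10 of the q value that MACS2 gave was deposited by the authors beside it. Reads assigned to no gene, 21% to 43.9% of a library, and ERCC counts were left out of library sizes.

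Counts were fitted with edgeR 4.0.16 (TMM scaling, filterByExpr, quasi-likelihood F test) in R 4.3.3, with Benjamini-Hochberg adjustment over all genes tested. They were fitted again with DESeq2 1.42.0, on every gene with at least 1 count. Its Benjamini-Hochberg adjustment kept the default of leaving out genes of low mean count, which then count as not called. Shares of all genes called by DESeq2 or by edgeR with no filter are therefore over a wider set than those of the other edgeR fits. The edgeR fits were tried on simulated data, and no result of these trials is used here. Peaks were joined to start sites with bedtools 2.31.1. Members and gene lists were chosen with earlier results of these data known, and the working description of the group was written with them in view. Genes named by rule were the 20 members with the highest mean CPM in WT and Het embryos, members on a gene list, members called between genotypes WT and Het or between stages, the 3 genes of highest mean just inside and on either side outside the rule, and Dis3. Others are said to be chosen after their values were seen. Protein sequences were not at hand, so no protein property was examined.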

Additional observations from a re-analysis of the deposited data

Results flagged for a closer look

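In 33 groups of embryos that were examined for a single value standing apart from the rest of its group, 2 met this. Both are a single value above zeros in members, for which the rule asks for a count of 0 in at least 4 of the 7 Null embryos, so this is in part built in. AU021092 stood at 8.79 CPM in Null_E2.5 replicate 2 and at 0 in the other 3 Null embryos of E2.5. Rps6ka4 stood at 6.93 CPM in Null_E2.5 replicate 1 and at 0 in the other 3. Neither difference was tested, and the cause was not tested.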

How the results depend on the processing

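The number of members depended on each threshold, and the cause was not tested. Given as % of the 9307 genes, with the number in brackets, it was 1.24% (115) as designed, 0.666% (62) with 10 counts, 0.408% (38) with 14 of 16 and 0.0107% (1) with all 16 WT and Het embryos required, 0.365% (34) with 5 Null zeros, 0% (0) with 7, and 2.32% where 1 count passed as none. With WT and Het counts scaled down to the median Null total it was 0.720% (67), to the smallest 0.204% (19), and 0.494% (46) without the 2 smallest Null libraries. Without 1 Null embryo and still with 4 zeros, fewer genes can pass: 0.784% (73), 0.612% (57), 0.602% (56) and 0.655% (61) without Null_E2.5 replicates 1 to 4, 0.688% (64) without Null_E2.75 replicate 1, and 0.602% to 0.935% over all 7.

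Members lower in Null embryos, a description, numbered 13 against Het embryos, 29 with DESeq2 (1.62% of all genes lower), 47 with ERCC library sizes (33.4%) and 8 (without Null_E2.5 replicate 4) to 21 (without Null_E2.75 replicate 2) with 1 embryo left out. Against WT embryos they numbered 13, 29 with DESeq2 (1.42%), 20 with ERCC library sizes (3.50%), 21 with no filter (2.19%), 21 with stage as a covariate (2.21%) and 11 to 18 with 1 embryo left out. No share of all genes is given for the fits with 1 embryo left out. These alternatives were chosen after seeing the data, and the cause was not tested.

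Between Het and WT embryos 0 members were called, 1 with DESeq2 (0.193% of all genes) and 0 whichever embryo was left out. Shares given for DESeq2 are over all genes with at least 1 count, a wider set than that of the filtered edgeR fits. Between stages 4 were called, 10 with DESeq2 (7.68% of all genes), 15 with ERCC library sizes (22.98%), 0 in the 9 WT embryos alone (6.76%), where the log2 fold changes of Mob3a, Dusp18, Rps6ka4 and AU021092 were 3.27, 2.39, 3.62 and -2.60, and 2 (without WT_E2.75 replicate 1, WT_E2.75 replicate 3 or Het_E2.5 replicate 2) to 7 (without WT_E2.5 replicate 4). The share of all genes called is not given for the fits with 2 and with 7 calls, and the cause was not tested.

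Replicate numbers do not pair the embryos: the deviations of 17 pairs with the same number correlated at -0.115 to 0.0826, none over 0.1. With replicate number as a block, 10 members were lower against Het (1.48% of all genes lower) and 13 against WT embryos (1.13%). With that block 0 were called between Het and WT embryos (0% of all genes) and 6 between stages (11.1%), where AU021092 was not called.

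Peaks lay at 62 members against IgG, 25 against mCherry and 25 against both. Zeros with 10 or more counts to be found fell from 421 to 10, and those with 3 or more from 501 to 103, at the lowest share of any WT or Het embryo. Genes chosen at 1 stage with zeros in all its Null embryos gave 0 and 2 lower at the other stage, in place of 3 and 5. Fewer genes were chosen, so nothing is read from the drop.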
